A study of Homo sapiens with 16 samples.

Results

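The mannose trimming enzymes and ERAD lectins are 10 genes out of the 58051 genes counted in LNCaP cells, a human prostate cancer (PCa) cell line. They were found by gene symbol, and each symbol matched 1 row of the count table. They are the EDEM family (EDEM1, EDEM2 and EDEM3), the lectins OS9 and ERLEC1, the ER mannosidase MAN1B1, the Golgi mannosidases MAN1A1, MAN1A2 and MAN1C1, and the cytosolic glycan-cleaving enzyme NGLY1. RNA-seq was carried out on 16 libraries in 4 groups of 4. The knockdown experiment compared siXBP1, in which XBP1 siRNA was given by reverse transfection, with siCtrl, which had Allstar control siRNA, both for 2 days. For inhibition, cells received DMSO (Vehicle) or 10 μM MKC8866 for 24 h. All 16 libraries, controls included, come from cells at passage 20 that were then given 30 nM thapsigargin (TG) for 3 h, so no group is free of ER stress and none shows the genes in resting cells. All groups are from 1 cell line.

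A protein that enters the endoplasmic reticulum (ER) is often decorated with a branched sugar rich in mannose. Mannosidases of a single family, the class I mannosidases, cut this sugar step by step, and a misfolded protein whose sugar has been cut far back is taken by lectins to the SEL1L-SYVN1 ubiquitin ligase, pulled into the cytosol, stripped of its sugar and degraded, a route called ER-associated degradation (ERAD). The same family continues the trimming in the Golgi on proteins that folded well. IRE1α senses ER stress, and its RNase activity starts the splicing of XBP1 mRNA into the form that encodes the transcription factor XBP1s. MKC8866 blocks that RNase activity. TG stops the pump that fills the ER with calcium. The comparisons ask which trimming enzymes and lectins depend on XBP1 (siXBP1 against siCtrl) and on IRE1α RNase activity (MKC8866 against Vehicle) in stressed cells.

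The libraries held 28713607 to 34509488 counted fragments (median 30743136). Levels are given in CPM, a gene's counts relative to the total of its library after all 16 were scaled together. XBP1, the targeted gene, was at 383.6 ± 29.5 CPM (SD, n = 4) in siCtrl and at 53.4 ± 1.32 CPM (n = 4) in siXBP1, a log2 fold change of -2.85 ± 0.051 (SE; edgeR quasi-likelihood test, adjusted p = 2.92e-20). With MKC8866, total XBP1 counts were higher, at 577.3 ± 30.7 CPM against 501.0 ± 25.6 CPM in Vehicle (n = 4 each; log2 fold change 0.20 ± 0.044, edgeR adjusted p = 0.00493), and counts per gene do not separate spliced from unspliced XBP1. The 5 luminal markers KLK2, KLK3, TMPRSS2, FOLH1 and HOXB13 were expressed in every group, with summed levels of 2540.1 CPM in siCtrl, 2066 CPM in siXBP1, 2588 CPM in Vehicle and 2929 CPM in MKC8866. They did not move as one. From siCtrl to siXBP1, mean levels went from 173 to 101 CPM for KLK2, from 657 to 363 CPM for KLK3 and from 231 to 125 CPM for TMPRSS2, against 1079 and 1074 CPM for FOLH1 and 400.4 and 403 CPM for HOXB13, and from Vehicle to MKC8866 KLK3 went from 649 to 896 CPM. Whether these differences have a part in the results was not tested. None of the 3 basal or 2 leukocyte markers reached a group mean of 1 CPM, and of the 3 fibroblast and 2 endothelial markers only COL1A1 (27.5 to 33.0 CPM) and VWF (8.15 to 9.33 CPM) did.

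XBP1s is known to act on genes through short promoter elements, several with an ACGT core, which is why the stretches that matched such elements in the XBP1 gene and in the trimming genes are shown. The windows ran from 250 bases before to 50 bases after the RefSeq start (GRCh38.p14), 9 of the 10 genes had at least 1, and MAN1A2 had none. Both strands were searched. The ER stress response element (ERSE: CCAAT and CCACG with 9 bases between them) is in 0.0769% of the 35116 windows of the table, and ERSE-II (ATTGG and CCACG with 1 base between them) in 0.0541%. TGACGTGG, the unfolded protein response element, is in 0.729%, and the shorter CCACGT, which every match of that element contains, in 9.72%. None of the 9 genes had either ERSE form or TGACGTGG in any window, whereas XBP1 itself had an ERSE. EDEM3, OS9 and ERLEC1 had CCACGT, OS9 at 2 positions, and 6 of the 9 did not. These are counts of genes, whereas the percentages are of windows, and MAN1C1 and NGLY1 had more than 1 window each. In the stretches below, each written 5′ to 3′ on the strand of its gene, the capitals mark the match. ACGTGG is CCACGT read on the other strand.
XBP1 (chr22:28800593-28800631, minus strand; ERSE from -52 to -34 of the start): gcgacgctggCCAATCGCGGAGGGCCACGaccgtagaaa
EDEM3 (chr1:184754991-184755046, minus strand; -163 to -158): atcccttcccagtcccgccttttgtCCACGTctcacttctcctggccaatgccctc
OS9, distal match (chr12:57694012-57694035, plus strand; -111 to -106): accttggagCCACGTttacaaata
OS9, proximal match (chr12:57694037-57694060, plus strand; -86 to -81): gaatagggtACGTGGgagggatag
ERLEC1 (chr2:53787066-53787091, plus strand; 32 to 37): ccggaaggagACGTGGcggcggttgg
These letters are descriptions of the windows and not measured binding sites. In the Ensembl release 85 annotation used for counting, the OS9 stretches lie inside the OS9 gene, which begins before the RefSeq start. The ERLEC1 stretch also lies inside its gene, after the start, and the EDEM3 stretch lies before the start of its gene.

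After XBP1 knockdown, 6 of the 10 genes were lower and 2 were higher at an adjusted p under 0.05 (edgeR), beside 18.2% of all 21021 tested genes called lower and 16.5% called higher. Many of those genes have low counts. Among the 16620 genes with at least 10 counts in every library, 3683 were lower and 3664 higher, with the 10 genes again at 6 and 2. Of the 10, those that fell were the 3 EDEM genes, both lectins and, by the smallest margin, MAN1B1. Of the enzymes that act in the Golgi, MAN1A1 and MAN1C1 rose, MAN1C1 from low counts. The more abundant MAN1A2 was not called (log2 fold change 0.08, edgeR adjusted p = 0.131). With MKC8866, 4 of the 10 were lower (EDEM1, EDEM2, EDEM3 and ERLEC1), beside 3.11% of all 21045 tested genes. None was called higher, beside 1.36% of all genes, with 1 gene higher at an unadjusted p under 0.05 and 0 called higher by DESeq2. With same-numbered libraries fitted as pairs (a replicate block, described at the end), MKC8866 gave 5 of the 10 lower and 1 higher. The block gave 1484 lower and 1262 higher of all 21045 genes. Without the block, 670 were lower and 282 higher among the 16695 genes with at least 10 counts in every library, with the 10 genes at 4 and 0. The median log2 fold change over the 10 genes was -0.19 after knockdown and -0.11 with MKC8866, against 0.0050 and 0.0027 over all genes tested. The 10 genes were chosen with earlier results of these data known, so setting them beside all genes is a description and not a test. Together the 10 genes took 0.0773% to 0.0785% of the counted fragments in the siCtrl libraries and 0.0662% to 0.0680% in siXBP1, and 0.0761% to 0.0786% in Vehicle and 0.0652% to 0.0664% in MKC8866. The knockdown and inhibitor experiments have separate control libraries. In bulk RNA, fewer expressing cells and less RNA per cell cannot be told apart.

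**Figure D1:**
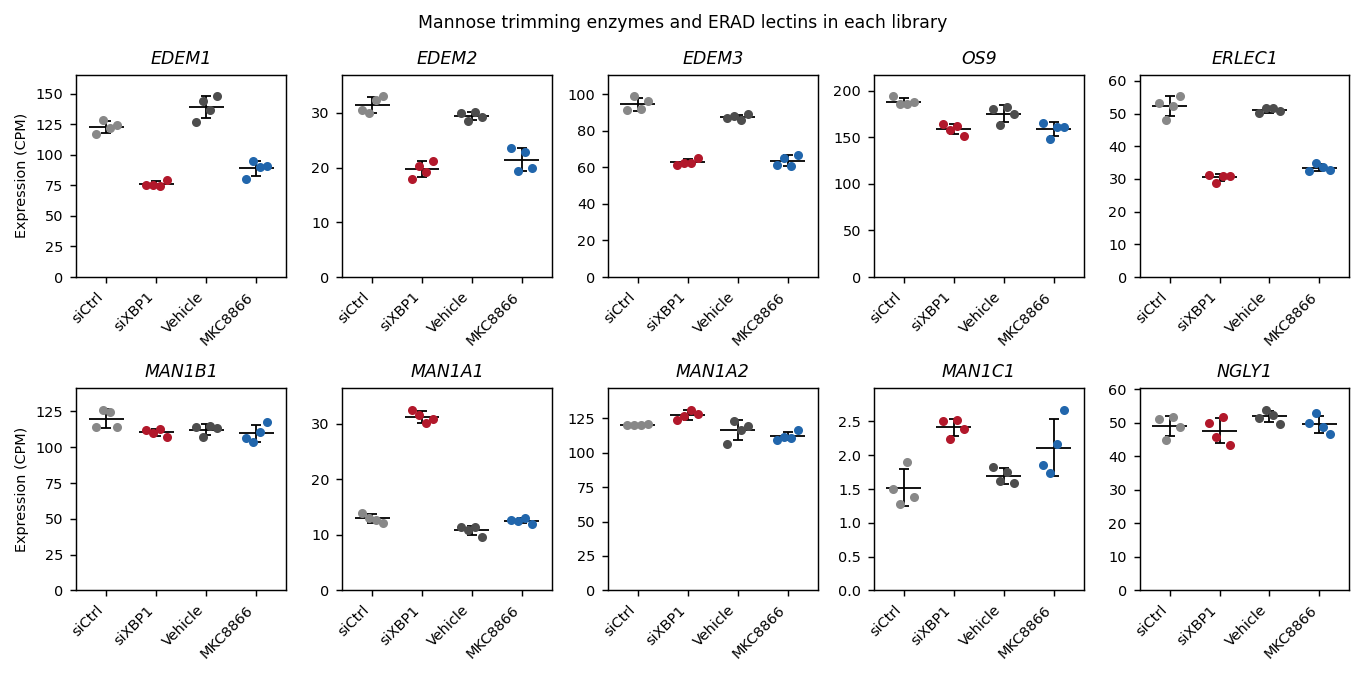
Expression in CPM (vertical axes, starting at 0 and scaled per gene) of the 10 genes in the 4 siCtrl, 4 siXBP1, 4 Vehicle and 4 MKC8866 libraries; points are libraries, the long bar is the group mean and the error bars are 1 SD. EDEM1, EDEM2, EDEM3 and ERLEC1 sit lower in both treated groups than in their controls, and the NGLY1 libraries lie together in all 4 groups. MAN1A1 is highest in siXBP1 (30.1 to 32.5 CPM). Its MKC8866 libraries (11.9 to 13.1 CPM) lie a little above those of Vehicle (9.65 to 11.4 CPM).

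The EDEM proteins (ER degradation-enhancing mannosidase-like proteins) trim the sugars of misfolded proteins in the ER lumen and so mark them for degradation. All 3 genes fell with both treatments, by 33.8% to 38.3% after knockdown and by 27.5% to 36.2% with MKC8866. EDEM1 (ENSG00000134109, chr3:5187646-5219957, plus strand), long known as a gene induced through XBP1s, was at 117, 128, 122 and 125 CPM in the 4 siCtrl libraries and at 75.7, 74.9, 74.5 and 79.2 CPM in siXBP1. It was at 127, 144, 136 and 148 CPM in Vehicle and at 80.1, 95.0, 89.6 and 90.5 CPM in MKC8866. No treated library reached the lowest control library of either experiment. The log2 fold change was -0.70 ± 0.042 (SE) after knockdown (edgeR adjusted p = 9.88e-12) and -0.65 ± 0.052 with MKC8866 (adjusted p = 5.03e-09), and the difference between the responses was not called by the interaction test (-0.05 ± 0.070, adjusted p = 0.698).

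EDEM2 (ENSG00000088298, chr20:35115357-35147364, minus strand), which makes the first cut of the ERAD pathway together with TXNDC11, has the shortest exon length of the 10 genes, at 1919 bases. Its libraries held 30.5, 30.0, 32.3 and 33.0 CPM in siCtrl and 17.96, 20.3, 19.1 and 21.3 CPM in siXBP1. In Vehicle they held 30.0, 28.4, 30.1 and 29.2 CPM and in MKC8866 23.5, 19.3, 22.8 and 20.0 CPM. Treated and control libraries did not overlap in either experiment, and the MKC8866 libraries were the most spread (SD 9.78% of the mean). EDEM2 fell by 0.68 ± 0.061 on the log2 scale after knockdown (edgeR adjusted p = 8.38e-09) and by 0.46 ± 0.064 with MKC8866 (adjusted p = 2.28e-05). The difference between the responses, -0.21 ± 0.090, was not called (adjusted p = 0.0884). It was called without siXBP1 replicate 4 (adjusted p = 0.0498), without MKC8866 replicate 2 (0.0345) and with the replicate block.

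EDEM3 (ENSG00000116406, chr1:184690231-184754913, minus strand), which also trims mannose from misfolded glycoproteins in the ER, was at 91.3, 98.8, 91.95 and 96.0 CPM in siCtrl and at 61.2, 62.2, 62.5 and 64.9 CPM in siXBP1. It was at 86.8, 87.8, 86.0 and 89.0 CPM in Vehicle and at 61.1, 65.3, 60.8 and 66.7 CPM in MKC8866. The 2 treated groups lay on top of each other, at group means of 62.7 ± 1.60 CPM and 63.5 ± 2.99 CPM, although their controls did not overlap (SD, n = 4 each). The log2 fold change was -0.60 ± 0.043 after knockdown (edgeR adjusted p = 1.89e-10) and -0.46 ± 0.044 with MKC8866 (adjusted p = 7.56e-08), with a difference that was not called (-0.13 ± 0.058, adjusted p = 0.107). Of the EDEM genes, EDEM3 alone had CCACGT in its promoter window, and whether the element has a part in the response was not tested.

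OS9 and ERLEC1 (also known as XTP3-B) are lectins of the ER lumen that recognise the trimmed sugar and hand the misfolded protein to SEL1L. The pair differed in how far they fell. ERLEC1 (ENSG00000068912, chr2:53787044-53818819, plus strand) was at 53.2, 48.1, 52.3 and 55.3 CPM in siCtrl and at 31.3, 28.8, 30.9 and 31.0 CPM in siXBP1, a fall of 41.8%. It was at 50.1, 51.6, 51.6 and 50.6 CPM in Vehicle and at 32.6, 34.9, 33.5 and 32.7 CPM in MKC8866, a fall of 34.49%. Of the 10 genes it had the largest fall after knockdown, and its highest treated library (34.9 CPM) was below its lowest control library (48.1 CPM). The log2 fold changes were -0.78 ± 0.053 (edgeR adjusted p = 8.56e-11) and -0.61 ± 0.048 (adjusted p = 2.98e-09). Their difference, -0.17 ± 0.069, was not called (adjusted p = 0.0783), and of the fits that left out 1 library it was called in the one without siCtrl replicate 2 (adjusted p = 0.0207). The replicate block called it as well.

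OS9 (ENSG00000135506, chr12:57693955-57721557, plus strand) was the most abundant of the 10 genes per kb of exon in every group. It was at 194, 186, 185 and 188 CPM in siCtrl and at 164, 158, 162 and 151 CPM in siXBP1, with no overlap. It was at 180.4, 163, 183 and 175 CPM in Vehicle and at 165, 148, 161 and 161 CPM in MKC8866, where the lowest Vehicle library (replicate 2) lay below the highest MKC8866 library. OS9 fell by 15.8% after knockdown (log2 fold change -0.25 ± 0.040, edgeR adjusted p = 3.21e-05). With MKC8866 the log2 fold change was -0.14 ± 0.044, which missed the threshold (adjusted p = 0.0668). OS9 passed it with DESeq2 (adjusted p = 0.0366), with no filter on low counts (0.043), with all 16 libraries in one fit (0.0451), without Vehicle replicate 2 (0.0135) and without MKC8866 replicate 1 (0.0495). It passed by the widest margin with the replicate block, whose value is given at the end. The difference between the OS9 responses was -0.10 ± 0.059 (adjusted p = 0.242).

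**Figure D2:**
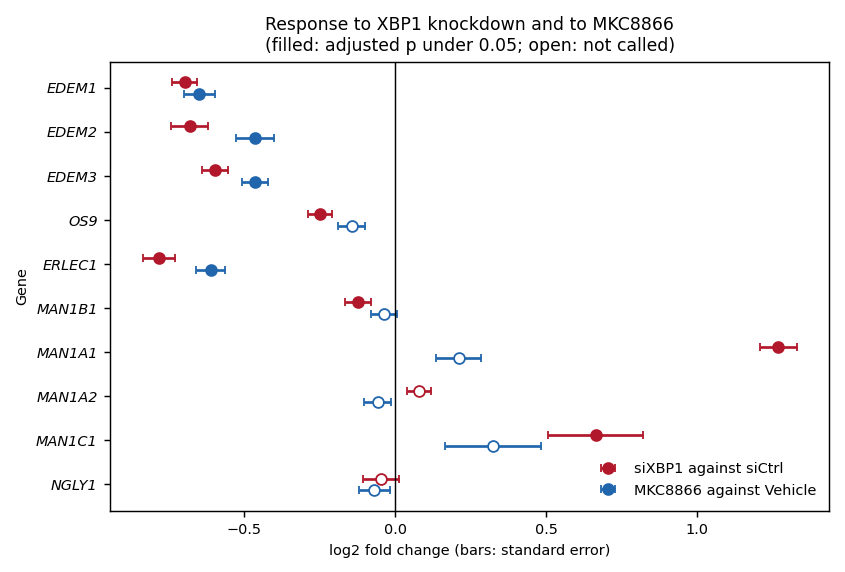
Log2 fold change (horizontal axis) of each of the 10 genes for siXBP1 against siCtrl (red) and MKC8866 against Vehicle (blue); bars are 1 standard error, filled points have an edgeR adjusted p under 0.05. The EDEM genes and ERLEC1 lie between -0.78 and -0.46 in both comparisons, and MAN1A1 lies at 1.27 after knockdown and at 0.21 with MKC8866.

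MAN1B1 (ENSG00000177239, chr9:137086927-137109187, plus strand) encodes the mannosidase that removes the first mannose from most new glycoproteins. Its siCtrl libraries were at 114, 126, 125 and 115 CPM and its siXBP1 libraries at 112, 110, 113 and 107 CPM. The ranges came within 2 CPM of each other, from 112.7 CPM in the highest siXBP1 library to 114.4 CPM in the lowest siCtrl library. The fall of 8.24% (log2 fold change -0.12 ± 0.043) passed the threshold in edgeR (adjusted p = 0.0295). It no longer did so without siCtrl replicate 2 (adjusted p = 0.135) or 3 (0.124), without siXBP1 replicate 1 (0.0532), 2 (0.0857) or 4 (0.116), or with no filter on low counts (0.0511). In Vehicle MAN1B1 was at 114, 107, 115 and 113 CPM and in MKC8866 at 107, 104, 111 and 118 CPM, with overlapping groups and a log2 fold change of -0.04 ± 0.044 (adjusted p = 0.773).

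The Golgi enzymes MAN1A1, MAN1A2 and MAN1C1 prepare the sugars of proteins that have left the ER for the building of complex and hybrid sugars. MAN1A1 (ENSG00000111885, chr6:119177209-119349761, minus strand) was at 13.9, 12.99, 12.6 and 12.2 CPM in siCtrl and at 32.5, 31.5, 30.1 and 30.8 CPM in siXBP1, with all siXBP1 libraries over 30 CPM and all siCtrl libraries under 14 CPM. It rose 2.41-fold (log2 fold change 1.27 ± 0.061, edgeR adjusted p = 2.38e-13), the largest change of the 10 genes in either direction and in either comparison. In Vehicle it was at 11.4, 10.8, 11.4 and 9.65 CPM and in MKC8866 at 12.6, 12.4, 13.1 and 11.9 CPM. These groups did not overlap either, but the log2 fold change of 0.21 ± 0.074 was not called (adjusted p = 0.131), and the MKC8866 libraries overlapped those of siCtrl. With the replicate block MAN1A1 was called higher with MKC8866, as given at the end. MAN1A1 was the only one of the 10 genes whose responses differed by the interaction test, beside 23.3% of the 20357 genes tested. The difference was 1.06 ± 0.093 on the log2 scale (adjusted p = 3.74e-10), and it lay between 1.03 and 1.11 when each library was left out in turn.

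MAN1A2 (ENSG00000198162, chr1:117367449-117528872, plus strand), which makes the same kind of cut as MAN1A1, was the more abundant of the pair, at 12.5 ± 0.050 CPM per kb of exon in siCtrl against 2.58 ± 0.148 for MAN1A1 (SD, n = 4). Its siCtrl libraries were at 120.2, 120.0, 120.4 and 121.1 CPM. Its siXBP1 libraries, at 124, 127, 132 and 128 CPM, were all above them, but by a log2 fold change of only 0.08 ± 0.039 that was not called (edgeR adjusted p = 0.131). In Vehicle MAN1A2 was at 107, 123, 117 and 119.6 CPM and in MKC8866 at 109.5, 112, 111 and 117 CPM, with overlapping groups (log2 fold change -0.06 ± 0.045, adjusted p = 0.622). The difference between the MAN1A2 responses was 0.14 ± 0.058 (adjusted p = 0.0856), and it was called without Vehicle replicate 1 (0.0162) and with the replicate block.

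MAN1C1 (ENSG00000117643, chr1:25617468-25786207, plus strand), the third Golgi enzyme, was barely expressed, with 43 to 92 counted fragments in a library. It was at 1.504, 1.28, 1.90 and 1.39 CPM in siCtrl and at 2.501, 2.24, 2.52 and 2.38 CPM in siXBP1, again with no overlap. The rise was 1.58-fold (log2 fold change 0.66 ± 0.157, edgeR adjusted p = 0.00196). It was at 1.82, 1.61, 1.76 and 1.58 CPM in Vehicle and at 1.86, 1.74, 2.17 and 2.68 CPM in MKC8866, where the groups overlapped and the log2 fold change was 0.32 ± 0.159 (adjusted p = 0.341). The standard errors of MAN1C1 were the widest of the 10 genes, and the difference between the responses was not called (0.34 ± 0.220, adjusted p = 0.293).

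NGLY1 (ENSG00000151092, chr3:25718944-25790039, minus strand), the peptide:N-glycanase that strips the sugar from proteins after they have reached the cytosol, was at 51.0, 44.8, 51.6 and 48.7 CPM in siCtrl and at 49.9, 45.8, 51.6 and 43.4 CPM in siXBP1. It was at 51.5, 53.9, 52.3 and 49.7 CPM in Vehicle and at 49.99, 52.8, 48.6 and 46.7 CPM in MKC8866. The groups overlapped in both experiments. The log2 fold changes were -0.05 ± 0.059 (edgeR adjusted p = 0.613) and -0.07 ± 0.050 (adjusted p = 0.594), with a difference of 0.02 ± 0.080 (adjusted p = 0.874).

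Counted by libraries and not by a test, after knockdown 6 of the 10 genes had all siXBP1 libraries below all siCtrl libraries, beside 16.7% of all genes tested, and 3 had them above, beside 15.6%. With MKC8866, 4 of the 10 were below, beside 5.15% of all genes, and 1 (MAN1A1) was above, beside 4.03%. Across all 4 groups the order of the means was not the same from gene to gene. For EDEM2, EDEM3 and ERLEC1, siCtrl was highest and siXBP1 lowest. Neighbours in this order whose libraries overlapped were siCtrl and Vehicle for EDEM2 and ERLEC1, and MKC8866 and siXBP1 for EDEM2 and EDEM3. For EDEM1, Vehicle (139 ± 9.19 CPM) was above siCtrl (123 ± 4.95 CPM) with overlap, and MKC8866 (88.8 ± 6.29 CPM) was above siXBP1 (76.1 ± 2.16 CPM) without it (SD, n = 4 each). For MAN1B1, MAN1C1 and NGLY1, every pair of neighbouring groups overlapped. Comparisons of level across the experiments are descriptions, since the cells were handled differently.

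Per kb of exon, levels in siCtrl ran from 36.4 ± 0.778 CPM per kb for OS9 and 20.1 ± 1.17 for ERLEC1 down to 5.89 ± 0.370 for NGLY1, 2.58 ± 0.148 for MAN1A1 and 0.168 ± 0.030 for MAN1C1 (SD, n = 4 each). The 7 class I mannosidases were set against each other on the same scale, which depends on the deposited length. That length covers all annotated exons of a gene and not the transcripts expressed here. Without division by it, siCtrl shares were 24.4% for EDEM1, 23.9% for MAN1A2, 23.8% for MAN1B1 and 6.25% for EDEM2, and 49.4% for the EDEM genes together. The order of the genes below therefore rests on the length used, apart from the first place of EDEM1 in siCtrl. So does the EDEM majority in siCtrl and MKC8866, whereas in Vehicle the EDEM genes held 51.4% without the division. Summed over the 7, the family was at 76.3 ± 1.60 CPM per kb in siCtrl and 62.5 ± 0.943 in siXBP1, and at 75.0 ± 1.57 in Vehicle and 59.9 ± 1.14 in MKC8866 (SD, n = 4 each). In siCtrl EDEM1 was first at 18.2 ± 0.732 CPM per kb, followed by EDEM2 at 16.4 ± 0.745 and MAN1B1 at 14.4 ± 0.776. In siXBP1 the first place passed to MAN1B1 at 13.3 ± 0.293 and MAN1A2 at 13.2 ± 0.342, with EDEM1 at 11.3 ± 0.320 CPM per kb. The EDEM genes together held 61.2% ± 0.839 of the family level in siCtrl and 47.3% ± 1.201 in siXBP1, and 62.8% ± 0.426 in Vehicle and 54.1% ± 0.893 in MKC8866. The share of the 3 Golgi enzymes was 19.9% ± 0.581 in siCtrl and 31.5% ± 0.457 in siXBP1, and 19.2% ± 0.634 in Vehicle and 23.9% ± 0.192 in MKC8866. Within that, the MAN1A1 share was 3.39% ± 0.259 in siCtrl, 9.98% ± 0.448 in siXBP1, 2.88% ± 0.267 in Vehicle and 4.16% ± 0.189 in MKC8866. The shares are descriptions of the same counts and carry no test, and a share can be larger because the other members are lower, as for MAN1A2, with 16.3% ± 0.346 in siCtrl, 21.1% ± 0.461 in siXBP1, 16.1% ± 0.724 in Vehicle and 19.4% ± 0.327 in MKC8866.

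**Figure D3:**
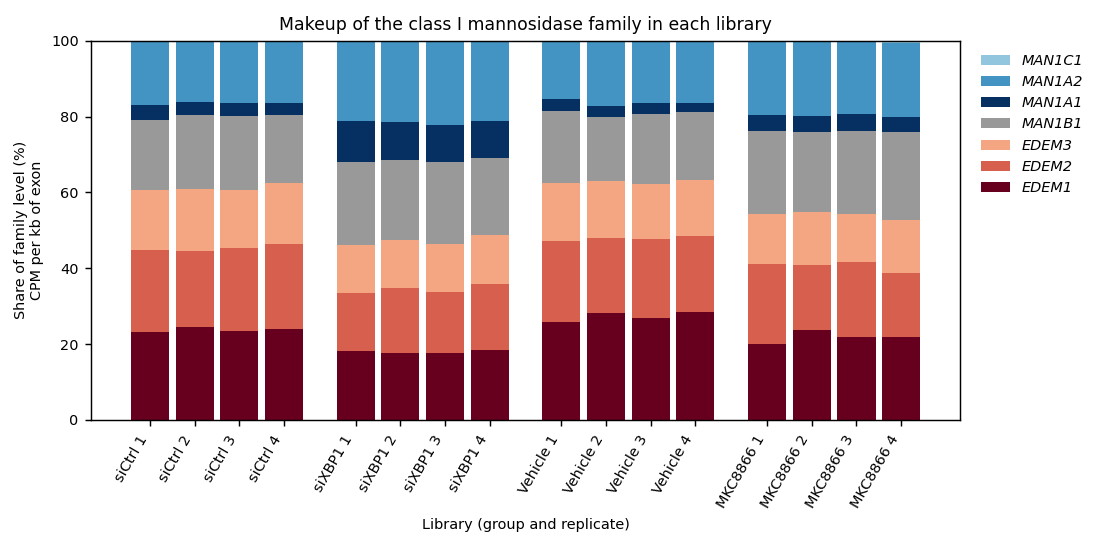
Share (vertical axis, %) of the summed level of the 7 class I mannosidases, in CPM per kb of exon, held by each in every library (horizontal axis); MAN1C1, at under 0.5%, is too thin to see. The EDEM genes (red shades) fill 60.6% to 62.4% of the siCtrl bars and 46.3% to 48.9% of the siXBP1 bars.

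Genes that work beside the trimming enzymes were taken from 3 lists with 41 genes in all, of which 40 were tested. These lists too were chosen with earlier results of these data known. FBXO27 did not pass the filter on low counts. After knockdown 18 of the 40 were lower and 9 higher, beside the 18.2% and 16.5% of all genes given above. With MKC8866 14 were lower, beside 3.11% of all genes, and 0 were higher by edgeR or DESeq2 (1 at an unadjusted p under 0.05). By the interaction test 6 were lower and 9 were higher in their response to knockdown than in their response to MKC8866, beside 23.3% of all genes in either direction.

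Before the EDEM proteins act, a glycoprotein passes through the calnexin cycle, in which glucose is removed and added back while the protein folds. Of the 14 genes of this cycle and of later N-glycan processing, 5 were lower and 1 was higher after knockdown, and 3 were lower and 0 higher with MKC8866 (1 higher at an unadjusted p under 0.05 and 0 by DESeq2). The median log2 fold changes were -0.05 and -0.07. MOGS, the glucosidase that makes the first cut on a new N-glycan, was lower with both treatments, at 45.7 ± 2.77 CPM in siCtrl, 26.5 ± 0.590 in siXBP1, 42.7 ± 2.82 in Vehicle and 29.7 ± 1.21 in MKC8866 (log2 fold changes -0.79 ± 0.055 and -0.52 ± 0.055, edgeR adjusted p = 1.19e-10 and 4.48e-07). MGAT1, which acts right after the Golgi mannosidases, was also lower with both (-0.43 ± 0.042 and -0.28 ± 0.041, edgeR adjusted p = 3.61e-08 and 5.94e-05). The 1 higher gene was CLGN, a relative of calnexin (0.38 ± 0.046, adjusted p = 6.11e-07). PDIA3, the disulfide isomerase of the cycle, was lower with MKC8866 (-0.20 ± 0.039, adjusted p = 0.00184) and at -0.05 after knockdown (adjusted p = 0.478).

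The ER partners of the EDEM proteins and lectins are the ligase, the channel proteins, the chaperones and reductases of the lumen and the VCP complex that pulls proteins out. Of these 17 genes, 10 were lower and 5 higher after knockdown, and 11 were lower and 0 higher with MKC8866 (0 at an unadjusted p under 0.05 and 0 by DESeq2). The median log2 fold changes were -0.14 and -0.28. SYVN1, the ligase itself, fell further than any of the 10 trimming and lectin genes, from 320.4 ± 16.2 CPM in siCtrl to 118 ± 8.64 in siXBP1 and from 293 ± 14.8 in Vehicle to 133 ± 8.30 in MKC8866 (SD, n = 4 each). Its log2 fold changes were -1.45 ± 0.051 and -1.14 ± 0.047 (edgeR adjusted p = 1.01e-15 and 1.69e-14). DNAJC10, a reductase that opens disulfide bonds of EDEM1 clients, was at -0.74 ± 0.042 and -0.37 ± 0.044 (edgeR adjusted p = 3.75e-12 and 2.26e-06). HERPUD1, which organises the ligase complex, fell further with MKC8866 (-0.61 ± 0.034, adjusted p = 7.16e-12) than after knockdown (-0.25 ± 0.037, adjusted p = 9.83e-06), with a difference that was itself called (0.36, adjusted p = 1.7e-06). DERL3, a channel subunit, was at -0.70 ± 0.057 with MKC8866 and -0.45 after knockdown (edgeR adjusted p = 5.74e-09 and 0.000241).

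The 5 higher ER partners after knockdown were UBE2G2, HSPA5, HSP90B1, FAM8A1 and NPLOC4, of which all but UBE2G2 are named because the count is small and after their values were seen. UBE2G2, a ubiquitin-conjugating enzyme that works with ER ligases, had the largest rise (1.04 ± 0.052, edgeR adjusted p = 4.42e-13). Its siCtrl libraries (63.8 ± 3.92 CPM) stood below the other 3 groups, with 132 ± 8.13 CPM in siXBP1, 114 ± 5.196 in Vehicle and 111 ± 3.13 in MKC8866 (SD, n = 4 each). With MKC8866 it was at -0.03 (adjusted p = 0.828). HSPA5, the main chaperone of the ER lumen, was higher after knockdown (0.30 ± 0.045, edgeR adjusted p = 1.69e-05) and lower with MKC8866 (-0.15 ± 0.032, adjusted p = 0.00476). For MAN1A1 the siXBP1 libraries stood above the other 3 groups. Such levels across the knockdown and inhibitor experiments are descriptions, since the cells were handled differently, and what sets a group apart was not tested.

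On the cytosolic side, the list holds sugar-binding ubiquitin ligase subunits, other glycan-cleaving enzymes and proteins that bind or depend on NGLY1. Of its 9 tested genes, 3 were lower and 3 higher after knockdown, and 0 were called with MKC8866 by edgeR or DESeq2 (1 lower and 0 higher at an unadjusted p under 0.05). The median log2 fold changes were 0.05 and 0.01. FBXO2, a ligase subunit that binds N-glycans, was at 7.15 ± 0.271 CPM in siCtrl and 14.3 ± 1.67 in siXBP1, and at 9.87 ± 1.18 in Vehicle and 10.0 ± 0.326 in MKC8866 (SD, n = 4 each). Its log2 fold change after knockdown was 1.00 ± 0.087 (edgeR adjusted p = 5.01e-09). DDI2, the protease that activates NFE2L1 after NGLY1 has acted on it, was at -0.31 ± 0.052 (adjusted p = 4.13e-05), and RAD23B, which binds NGLY1 and the proteasome, at -0.21 ± 0.039 (adjusted p = 0.000221).

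**Figure D4:**
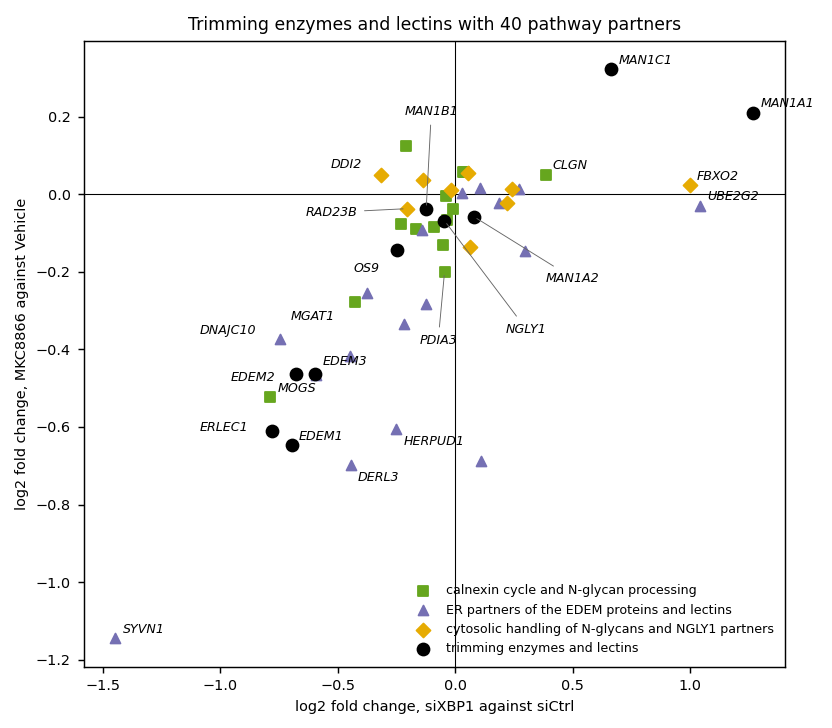
Log2 fold change after XBP1 knockdown (horizontal axis) against log2 fold change with MKC8866 (vertical axis, on a different scale) for the 10 trimming and lectin genes (black circles) and 40 partner genes (coloured by list); only genes described in the text are labelled. EDEM1, EDEM2, EDEM3, ERLEC1, MOGS, DNAJC10, DERL3, HERPUD1 and SYVN1 lie at the lower left, and MAN1A1, UBE2G2 and FBXO2 lie at about 1 or above on the horizontal axis and between -0.03 and 0.21 on the vertical.

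Fragments in exons shared with another gene were not counted, and they can lower a gene's count. Of the 10 genes this touches 9.66% of the exon bases of EDEM1 (a gene with 3 counts in all libraries together), 13.5% of OS9 (a gene with 0 counts) and 6.44% of NGLY1, which overlaps OXSM on the other strand. OXSM itself was lower, by 0.26 ± 0.056 on the log2 scale after knockdown (edgeR adjusted p = 0.000845) and by 0.36 ± 0.053 with MKC8866 (adjusted p = 5.97e-05). Its part in the NGLY1 values was not tested. Among the partners with their values given, the largest shares of exon bases in such overlaps were 7.24% of SYVN1 with FAU, 14.8% of PDIA3 with ELL3, 11.4% of FBXO2 with FBXO44 and 15.3% of DDI2 with RSC1A1.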

How the data were processed

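RNA-seq of LNCaP cells was analysed from the counts per gene that the authors deposited without normalization. Per the paper and the labels, TruSeq stranded libraries were sequenced as paired ends, aligned to hg38 with STAR 2.5.2a and counted with featureCounts 1.5.0 on Ensembl release 85, with no strand, multimapping or multi-overlap option in the header. The exon length deposited beside the counts is in bases. All columns were mapped by the labels.

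A gene was tested where both groups had a library with over 5 counts of it. Each treatment was fitted with its own control in edgeR 4.0.16 (R 4.3.3, TMM scaling, two-sided quasi-likelihood F test), and p-values were adjusted by Benjamini-Hochberg over all tested genes, with calls under 0.05. Standard errors come from the log2 fold change and F statistic. The interaction was fitted over all 16 libraries. CPM used one TMM scaling over them. With 28713607 to 34509488 fragments per library, the spread between libraries (biological coefficient of variation 5.40% for knockdown and 4.97% for inhibition) sets most of the error of the abundant genes, to which counting adds for MAN1A1 and MAN1C1. The paper calls the libraries of a group independent samples without saying whether each had its own culture, so p-values measure the spread between these libraries, part of which may be technical.

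Alternatives were DESeq2 1.42.0, its size factors in edgeR, no low-count filter, at least 10 counts in every library, a replicate block, all libraries in one fit, an adjusted p under 0.01 and leaving out each library. The scripts were tested on simulated data. Genes named are all 10 members, XBP1 and, per partner list and comparison, the 3 called genes with the lowest adjusted p plus 1 called gene with the largest change in the other direction. The members and lists were chosen with earlier results of these data known. Spliced and unspliced XBP1 reads were not analysed here, and 1 luminal marker of the list is not reported here. Promoter sequences are from RefSeq. Figures were drawn with matplotlib 3.10.9.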

Additional observations from a re-analysis of the deposited data

Results flagged for a closer look

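Of the 40 groups of 4 libraries tested over the 10 genes, 2 held a library far from the others by Dixon's test, and chance alone flags about 1 in 20. In siXBP1 the lowest ERLEC1 library was at 28.8 CPM (others 30.9 to 31.3 CPM), and in Vehicle the lowest MAN1B1 library was at 107 CPM (others 113 to 115 CPM).

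The responses to knockdown and to MKC8866 differed by the edgeR interaction test for MAN1A1 and for several genes around it, and differences are given as the log2 fold change after knockdown minus that with MKC8866. MAN1A1 had a difference of 1.06 (adjusted p = 3.74e-10). XBP1, the siRNA target, had -3.05 (adjusted p = 5.04e-23). Among the partners with the higher value after knockdown, UBE2G2 differed by 1.07 (adjusted p = 5.41e-13), FBXO2 by 0.98 (4.6e-07), HSPA5 by 0.45 (6.08e-07), HERPUD1 by 0.36 (1.7e-06), CLGN by 0.34 (0.00033), HSP90B1 by 0.26 (0.000902) and FAM8A1 by 0.21 (0.00641). HSPA5 was called in opposite directions by the 2 comparisons. Among those with the lower value after knockdown, DNAJC10 differed by -0.37 (adjusted p = 3.75e-05), DDI2 by -0.36 (0.000362), SYVN1 by -0.30 (0.00284), MOGS by -0.26 (0.0137) and RAD23B by -0.17 (0.022). In all, 9 of the 40 partners tested had the higher and 6 the lower value after knockdown. The knockdown and inhibitor experiments also differ in handling and time, which cannot be told apart from the kind of treatment here.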

How the results depend on the processing

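Of the single-gene values of the 10 genes under the alternatives, 495 kept their direction and their side of the threshold, 14 passed it newly, 7 no longer passed it and 4 changed sign. The 4 were all NGLY1, whose log2 fold change after knockdown ran from -0.083 to 0.0024 when each library was left out (changing sign without siXBP1 replicate 4) and whose difference between the responses ran from -0.020 to 0.066 (changing sign without siCtrl replicate 2, siXBP1 replicate 3 or MKC8866 replicate 4). FBXO2 with MKC8866 ran from -0.032 to 0.079, changing sign without Vehicle replicate 1 or 4. With MKC8866, HSP90B1 ran from -0.0094 to 0.032 and NPLOC4 from -0.0091 to 0.029, changing sign without Vehicle replicate 1 or MKC8866 replicate 2 for HSP90B1, and without Vehicle replicate 2 or MKC8866 replicate 3 for NPLOC4.

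The replicate numbers were tried as a replicate block. The deviations of same-numbered libraries correlated at 0.00 to 0.053 for knockdown and 0.075 to 0.237 for inhibition. In the same order, 0 of 8 and 7 of 8 libraries correlated best with their own number. For inhibition the mean correlation was 0.139 within a number and -0.046 between numbers. The labels do not say whether same-numbered cultures were handled together, so the main test has no block. If the inhibitor libraries are paired, the main test ignores that pairing and calls fewer genes with MKC8866. With MKC8866 the block gave 5 of the 10 genes lower (OS9 joining, adjusted p = 3.47e-05) and 1 higher (MAN1A1, 0.0209), 19 partners lower and 1 higher, and 1484 genes lower and 1262 higher of all genes (654 and 287 without it). For the difference between the responses it gave 2 of the 10 genes lower (EDEM2, adjusted p = 0.0411, and ERLEC1, 0.031) and 2 higher (MAN1A2, 0.0374, beside MAN1A1). Of all 20357 genes, 3001 were lower and 2641 higher in that fit, so such calls were common. After knockdown the block left the counts of the 10 genes at 6 and 2, beside 3846 lower and 3477 higher of all 21021 genes.

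At an adjusted p under 0.01, MAN1B1 was not called after knockdown, 139 genes were higher with MKC8866 and 1258 were higher in the interaction test (2157 at 0.05). Leaving out each library in turn gave 180 to 484 genes higher with MKC8866 (188 without Vehicle replicate 3, and 180, 484, 184 and 191 without MKC8866 replicates 1, 2, 3 and 4), 5 to 6 of the 10 genes lower after knockdown, 4 to 5 lower with MKC8866, 0 to 1 partners higher with MKC8866, and 0 to 1 of the 10 genes lower and 1 to 2 higher in the interaction test. The cause was not tested. Without division by exon length the EDEM genes held 49.4% of the family in siCtrl, 36.8% in siXBP1, 51.4% in Vehicle and 42.3% in MKC8866, since that weights genes by their length. For MAN1C1 and MAN1A1, counting error limits the precision.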
